A study of Homo sapiens with 18 samples.

Results

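The genes described here encode the core of the RAS to ERK cascade. They are the RAS GTPases NRAS and HRAS, the RAF kinases ARAF and BRAF, the MEK kinases MAP2K1 (MEK1) and MAP2K2 (MEK2) and the ERK kinase MAPK3 (ERK1). They were chosen by name and make up 7 of the 55765 gene symbols measured, and all 7 passed the filter on low counts in both series. Other genes of these families were not analysed here. RNA was sequenced from OVCAR3 cells, a long-established line of human ovarian cancer of the high-grade serous type, grown in RPMI medium with little serum. There were 18 libraries in 6 groups of 3 replicates. Cells of the first series were given natural human IgA or IgG with no chosen antigen, at 0.5 µg/ml, or no antibody. In the second they were given IgA against BDNF, a secreted neurotrophin, or IgA against TSPAN7, a tetraspanin of the cell surface, at the same dose, or no antibody. These last antibodies came from immortalized B cells of ovarian tumours. Labels and methods give an incubation of 24 h, although another description of the same experiment gives a shorter time. Every library therefore comes from 1 cell line. The study describes replicates of the first series as experiments and gives only the number of those of the second, so the spread on which the p-values rest may be technical there.

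RAS proteins are small GTPases that sit on the inner face of the cell membrane and switch on when receptors load them with GTP. Active RAS recruits a RAF kinase, RAF phosphorylates MEK, and MEK phosphorylates ERK, which acts on kinases in the cytoplasm and on transcription factors in the nucleus. The cascade relays growth signals in epithelial cells, and it is controlled mainly by phosphorylation and by negative feedback rather than by how much of each kinase is made. The study asked what IgA does to tumour cells when the polymeric immunoglobulin receptor carries it through them. The comparisons below ask whether transcripts of the cascade itself changed. They measure RNA only and carry no information on GTP loading or phosphorylation.

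A library held between 27920733 and 42371474 counts in the first series, and between 39254350 and 47381836 in the second. Every one of the 7 genes had at least 411 counts in every library. Counting error alone would give a coefficient of variation of 1.38% to 4.45%, beside 0.57% to 22.9% between replicates, and in 7 of the 42 groups of a gene the replicates varied no more than that. IgA replicate 3 stood apart. Mitochondrial transcripts supplied 19.1% of its counts, against 5.75% to 8.32% in the other 8 libraries of the first series, and its scaling factor of 0.80 was the lowest of the 18. All 7 epithelial and ovarian markers, PAX8, WT1, MUC16, EPCAM, KRT7, KRT8 and KRT18, had at least 692 counts in every library. Their summed normalised counts overlapped between the groups of the first series, at 152090 to 245683 with IgA, 153943 to 190942 with IgG and 157250 to 207679 untreated. In the second series the sums with TSPAN7 IgA, 175727 to 180156, lay below those of both other groups. These were 195087 to 210080 untreated and 197768 to 237181 with BDNF IgA. With TSPAN7 IgA MUC16 was lower than in untreated cells, whereas KRT7 was higher. Single markers of the first series moved both ways. WT1 lay at 1093 to 2807 with IgA against 4152 to 4800.3 with IgG and 4449 to 5100 untreated. KRT8 was also lower, at 25116.5 to 27343 with IgA against 28972 to 38105 and 33369.5 to 37300. PAX8 was higher, at 21885 to 27819 with IgA against 19075 to 19676 and 17506 to 20949. KRT7 was higher too, at 26546 to 29153.5 against 19368 to 21702 and 19292 to 20293. MUC16, EPCAM and KRT18 overlapped between the groups. The T cell marker CD3E had 0 to 2 counts, PTPRC, found on all leukocytes, 6 to 56 and the collagen gene COL1A1 514 to 1065. These 3 summed to 831 to 1332 normalised counts with IgA, above 653 to 699 with IgG and overlapping 653 to 879 untreated, almost all of it COL1A1. The part of these differences in the results was not tested. In bulk RNA, a change in the share of cells that express a gene cannot be told apart from a change in RNA per cell. The series were scaled separately, and groups were compared only within a series.

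MAP2K1 was the only one of the 7 genes whose change passed the test in any of the 6 comparisons, and it did so with non-specific IgA. It is therefore described first. MEK1 phosphorylates and activates ERK1 and ERK2. The gene lies on chromosome 15 from 66679175 to 66783994 (GRCh37, plus strand). Its paralog MAP2K2, on chromosome 19 from 4090319 to 4124119 (minus strand), encodes MEK2, which has the same substrates. The change of MAP2K2 did not pass the test, and the test of the MAP2K1 to MAP2K2 ratio given below did not pass after adjustment. The 250 bases before the annotated starts of both paralogs are given here to show how their promoter letters compare. They are RefSeq sequences on GRCh38.p14, written 5′ to 3′ on the strand of the gene, with the motifs searched in capitals.
MAP2K1 promoter, chr15:66386662-66386911, plus strand: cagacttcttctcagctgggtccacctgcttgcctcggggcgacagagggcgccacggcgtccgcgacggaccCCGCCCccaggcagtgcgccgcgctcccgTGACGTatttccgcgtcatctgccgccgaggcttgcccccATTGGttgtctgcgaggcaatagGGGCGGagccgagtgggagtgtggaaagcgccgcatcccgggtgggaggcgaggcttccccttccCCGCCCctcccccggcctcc
MAP2K2 promoter, chr19:4124123-4124372, minus strand: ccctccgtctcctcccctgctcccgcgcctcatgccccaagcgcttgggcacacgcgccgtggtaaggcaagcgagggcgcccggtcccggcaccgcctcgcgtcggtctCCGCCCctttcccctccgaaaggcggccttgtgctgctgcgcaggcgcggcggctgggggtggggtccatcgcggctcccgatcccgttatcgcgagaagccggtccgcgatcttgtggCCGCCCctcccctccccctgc

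The motifs searched on both strands were the GC box GGGCGG, the CCAAT box CCAAT, the cyclic AMP response core TGACGT, the AP-1 site TGACTCA and the ETS core CCGGAAG. None of the matches overlapped another. MAP2K1 held 3 GC boxes, 1 CCAAT box on the reverse strand and 1 TGACGT, and 71.2% of its 250 bases were G or C. MAP2K2 held 2 GC boxes and no match to the other motifs, at 74.0% G or C. Of 35116 promoter windows of this length in the table, 42.6% held the GC box, 32.0% the CCAAT box, 7.1% TGACGT, 4.20% the AP-1 site and 8.52% the ETS core. Among the other genes, MAPK3 held 6 GC boxes, HRAS 3 and NRAS 2, while ARAF and BRAF held none in their windows. ARAF was the other gene with a TGACGT match, HRAS had the single ETS match, and the AP-1 letters were in none of the first windows of the 7 genes. MAP2K1 and MAP2K2 each had a second annotated window, and these held no match. These matches describe letters only.

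With non-specific IgA, MAP2K1 rose to 1.42 times its level with IgG (95% interval 1.19 to 1.69) and to 1.52 times its level in untreated cells (1.28 to 1.81). Normalised counts are counts brought to 1 common library size per series after TMM scaling. Those of MAP2K1 were 2779, 2126 and 2185 in IgA replicates 1, 2 and 3. They were 1768, 1672 and 1550.3 with IgG and 1566, 1581 and 1518 in untreated cells. All 3 IgA libraries therefore lay above all 6 others, with replicate 1 the highest, and the IgG and untreated groups overlapped. The mean was 2363 ± 362 with IgA, 1663 ± 109 with IgG and 1555 ± 32.8 untreated (SD, n = 3). Against IgG the log2 fold change was 0.51 (SE 0.12, edgeR adjusted p = 0.00758), and against untreated cells it was 0.60 (SE 0.12, edgeR adjusted p = 0.00261).

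Both calls held when any 1 of the 9 libraries was left out, with adjusted p up to 0.0415 against IgG and up to 0.0168 against untreated cells by edgeR. Without IgA replicate 1 the log2 fold changes were 0.37 and 0.47, and without IgA replicate 3, the library rich in mitochondrial counts, they were 0.56 and 0.66. The calls depended on how libraries were scaled. Scaling by library size alone moved the median over all genes tested by -0.23 on the log2 scale against IgG and by -0.21 against untreated cells, and MAP2K1 then had log2 fold changes of 0.27 (edgeR adjusted p = 0.179) and 0.40 (edgeR adjusted p = 0.0577). Relative to the median of all genes, it stood 0.52 higher against IgG and 0.61 to 0.62 higher against untreated cells under either scaling. A change of scaling shifts all genes by nearly the same amount, so this distance could hardly change and does not test the rise.

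**Figure D1:**
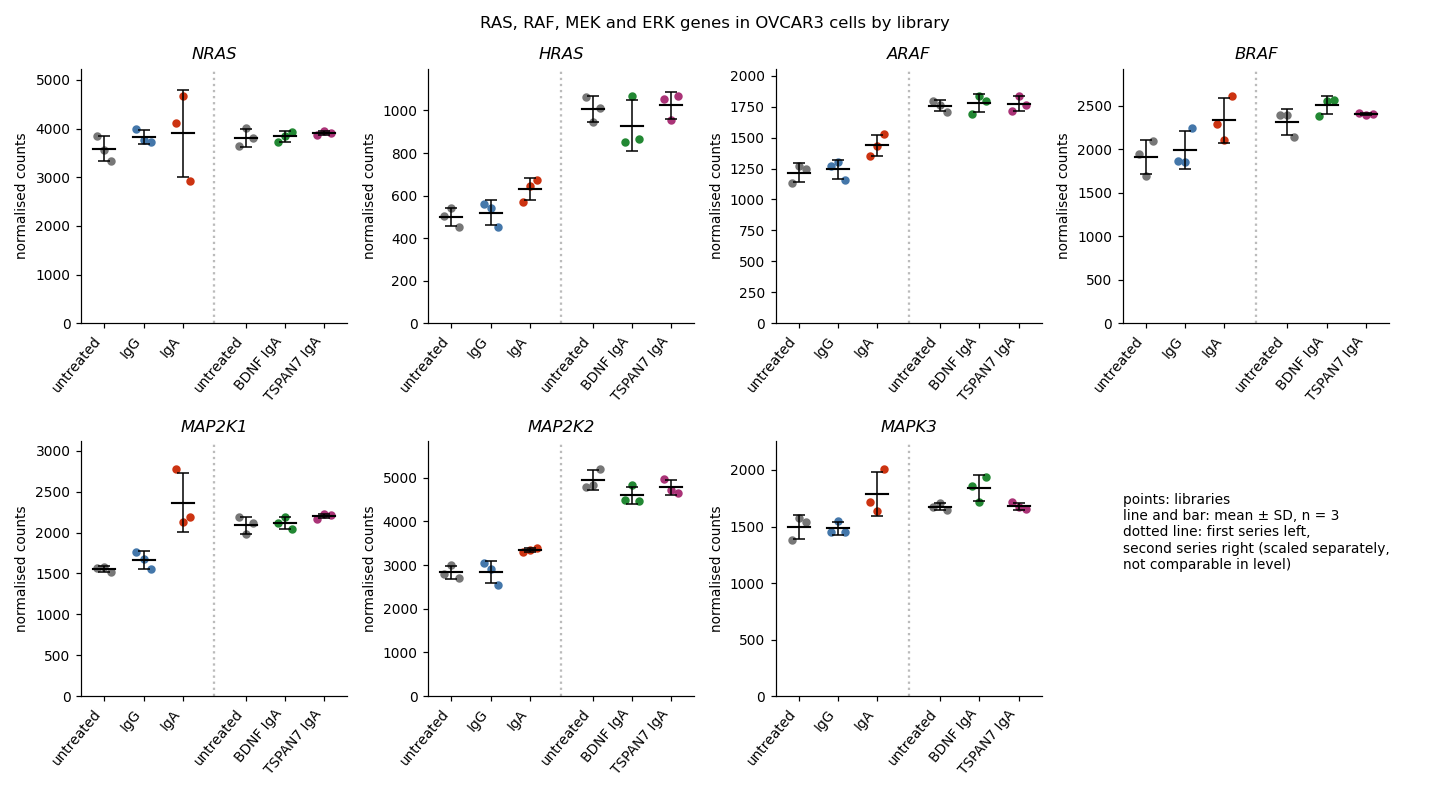
Normalised counts of the 7 genes in each library (vertical axes from 0; one panel per gene; points are libraries, lines and bars the mean ± SD of 3 replicates). In the first series, left of the dotted line, the 3 MAP2K1 values with IgA (2126 to 2779) lie above all 6 others, and NRAS with IgA spreads from 2921 to 4673.

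Against IgG, 1 of the 7 genes was called higher and 0 lower, beside 12.6% higher and 11.6% lower of all 18012 genes tested. Against untreated cells the shares over all genes were 12.9% higher and 12.1% lower, for 1 and 0 of the 7 genes. The count of calls among the 7 genes was thus close to that among genes at large. All 7 fold changes were above 0 in both comparisons, where 49.0% of all genes were against IgG and 49.1% against untreated cells. Their median log2 fold change was 0.24 against IgG and 0.25 against untreated cells, beside -0.015 and -0.012 over all genes. All 3 IgA libraries were above all 3 IgG libraries in 5 of 7 genes, beside 19.7% of all genes. They were above all 3 untreated libraries in 6 of 7, beside 19.8%. These comparisons share the IgA libraries. With library size scaling NRAS, ARAF, BRAF and MAP2K2 took log2 fold changes under 0 against IgG, and NRAS also against untreated cells. That scaling moved all genes by nearly the same amount, so distances from the median of all genes could hardly change and test nothing. All 7 stayed above that median in both comparisons. They did so by 0.066 to 0.52 against IgG (0.044 to 0.52 with TMM) and by 0.16 to 0.61 against untreated cells (0.14 to 0.62 with TMM).

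**Figure D2:**
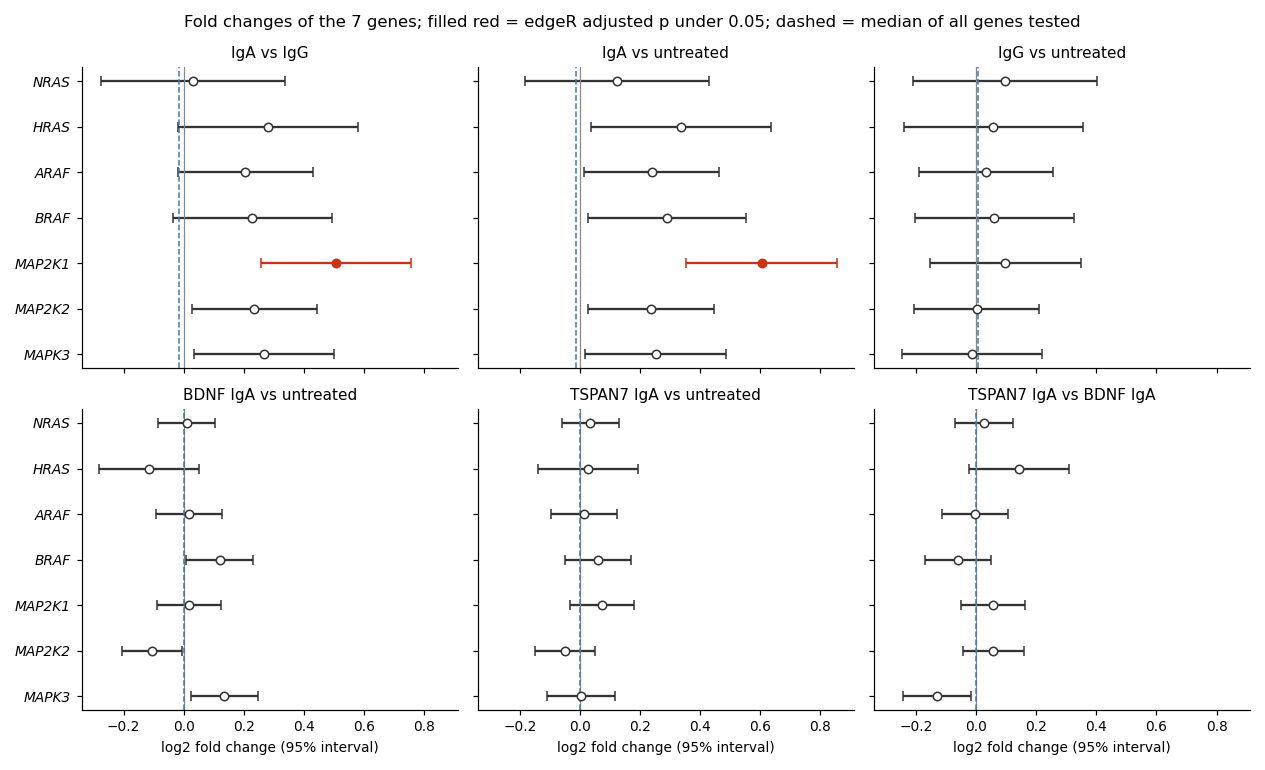
Log2 fold changes of the 7 genes in the 6 comparisons, with 95% intervals from the edgeR fit (horizontal axis; dashed line, median of all genes tested). Filled red points passed an adjusted p of 0.05: MAP2K1 with IgA against IgG (0.51) and against untreated cells (0.60), and no other.

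NRAS and HRAS encode GTPases with nearly the same switch domain and different membrane anchors. NRAS lies on chromosome 1 from 115247090 to 115259392 and HRAS on chromosome 11 from 532242 to 537321, both on the minus strand (GRCh37). NRAS was the most variable of the 7 genes with IgA, at 4122, 4673 and 2921 normalised counts in replicates 1, 2 and 3. With IgG it had 3991, 3765 and 3729, and in untreated cells 3852, 3567 and 3338. IgA replicate 3 lay below all other libraries of the series and the other IgA replicates above them, so the groups overlapped. The log2 fold change was 0.030 against IgG (SE 0.14, edgeR adjusted p = 0.901) and 0.12 against untreated cells (SE 0.14, edgeR adjusted p = 0.559). Without IgA replicate 3 it was 0.20 against IgG (edgeR adjusted p = 0.152) and 0.29 against untreated cells, which passed (edgeR adjusted p = 0.0382). The high mitochondrial share of that library moved with its low NRAS count, and the part of one in the other was not tested.

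HRAS had 572, 646 and 671 normalised counts in IgA replicates 1, 2 and 3, 561, 543 and 451 with IgG, and 503, 540 and 453 untreated. Every IgA library was above every other library of the series. The log2 fold change was 0.28 against IgG (SE 0.14, edgeR adjusted p = 0.160) and 0.34 against untreated cells (SE 0.14, edgeR adjusted p = 0.0935). Neither passed the test.

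ARAF and BRAF encode kinases that RAS recruits and that phosphorylate MEK, BRAF being the more active of the pair. ARAF lies on chromosome X from 47420604 to 47431307 on the plus strand, and BRAF on chromosome 7 from 140419127 to 140624729 on the minus strand. ARAF had 1352, 1433 and 1526 normalised counts with IgA, 1273, 1304 and 1159 with IgG, and 1133, 1272 and 1248 untreated. IgA libraries did not overlap the other groups, and the log2 fold changes were 0.21 (SE 0.10, edgeR adjusted p = 0.166) and 0.24 (SE 0.10, edgeR adjusted p = 0.110). BRAF had 2287, 2101 and 2613 with IgA, 1868, 1857 and 2248 with IgG, and 1939, 1697 and 2089 untreated. IgG replicate 3 overlapped the IgA range for BRAF, whereas the untreated libraries did not, and the log2 fold changes were 0.23 (SE 0.12, edgeR adjusted p = 0.192) and 0.29 (SE 0.12, edgeR adjusted p = 0.101). With the replicate number as a block the BRAF change against untreated cells passed (0.29, edgeR adjusted p = 0.0419). Whether libraries of the same number belong together is not given in the sources used here.

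MAP2K2 was the steadiest of the genes with IgA, at 3301, 3333 and 3387 normalised counts. It had 3048, 2908 and 2554 with IgG and 2801, 2996 and 2703 untreated. Its IgA libraries were all above the others by a small margin, with log2 fold changes of 0.24 against both IgG and untreated cells (SE 0.097 in each, edgeR adjusted p = 0.0944 and 0.0908). MAPK3, on chromosome 16 from 30125426 to 30134827 (minus strand), encodes ERK1, the last kinase of the cascade. It had 1717, 1634 and 2011 normalised counts with IgA, 1449, 1548 and 1455 with IgG, and 1379, 1576 and 1540.4 untreated. Again all IgA libraries were above the others, with log2 fold changes of 0.27 (SE 0.11, edgeR adjusted p = 0.0905) and 0.25 (SE 0.11, edgeR adjusted p = 0.107). Without IgA replicate 2 the MAPK3 change against IgG passed (0.32, edgeR adjusted p = 0.0486).

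Before adjustment, p was under 0.05 in 6 of the 7 genes with IgA against untreated cells, beside 37.6% of all genes. Against IgG it was so in 3 of 7, beside 37.5%. These counts depended on the fit, and ran from 1 to 6 and from 0 to 5 under the alternatives. With library size scaling they were 1 and 0, and with at least 100 counts in every library 1 in each. Without untreated replicate 1 the count against untreated cells was 1. The median absolute log2 fold change of all genes was 0.36 against untreated cells and 0.35 against IgG, and MAP2K1 was the only one of the 7 above it in both comparisons.

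The comparison of IgG with untreated cells asked whether an antibody of another class moved these transcripts. None of the 7 genes was called in either direction, and 0% of all genes were called higher and 0% lower by edgeR. Before adjustment 89 genes had p under 0.05 by edgeR, none of the 7 among them, and 139 did by DESeq2, which also called 0. Log2 fold changes ran from -0.015 (MAPK3) to 0.098 (MAP2K1). The 95% intervals of the 7 genes together reached from -0.25 to 0.40, so changes beyond 1.32-fold lay outside every interval.

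In the second series the question was whether IgA against a tumour antigen affected the same genes. None of the 7 passed the test with BDNF IgA, where 4.49% of all 18732 genes tested were higher and 3.18% lower than in untreated cells. Nor did any pass with TSPAN7 IgA, where 4.46% were higher and 4.08% lower. MAP2K1 had 2116, 2187 and 2049 normalised counts with BDNF IgA, 2169, 2226 and 2209.7 with TSPAN7 IgA, and 2184, 1978 and 2111 untreated. These groups overlapped, and the log2 fold changes of MAP2K1 were 0.018 (SE 0.051, edgeR adjusted p = 0.885) and 0.074 (SE 0.051, edgeR adjusted p = 0.431). The upper bounds of their 95% intervals were 1.09-fold and 1.13-fold. Both comparisons use the same untreated libraries, and the difference from the response to non-specific IgA was not tested.

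With BDNF IgA the values nearest the threshold belonged to MAPK3, BRAF and MAP2K2. MAPK3 had 1859, 1719 and 1941 normalised counts, all above the 1670.4, 1708 and 1648 of untreated cells (log2 fold change 0.14 with an SE of 0.054, edgeR adjusted p = 0.136). Such a separation upwards was seen in 1 of the 7 genes, beside 2389 of all 18732 genes. BRAF had 2385, 2559 and 2571 beside 2394, 2393 and 2135 untreated, and its groups overlapped (0.12, SE 0.053, edgeR adjusted p = 0.185). MAP2K2 had 4481, 4827 and 4464 beside 4780.4, 4840.0 and 5202 untreated, also with overlap (-0.11, SE 0.048, edgeR adjusted p = 0.198). HRAS had 852, 1068 and 867 beside 1063, 945 and 1012 (-0.12, SE 0.080, edgeR adjusted p = 0.432). BDNF IgA replicate 2 was thus the library nearest to untreated cells in MAPK3, MAP2K2 and HRAS. Without it 3 of the 7 genes were called, with HRAS at -0.23 (edgeR adjusted p = 0.0289), MAP2K2 at -0.15 (edgeR adjusted p = 0.0398) and MAPK3 at 0.18 (edgeR adjusted p = 0.0249), while the share of all genes called rose from 7.67% to 14.6%. NRAS and ARAF had log2 fold changes of 0.0095 and 0.016.

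With TSPAN7 IgA the 7 log2 fold changes lay between -0.049 (MAP2K2) and 0.074 (MAP2K1), and edgeR adjusted p was at least 0.431. Replicates were close to each other. NRAS had 3877, 3943 and 3903 normalised counts, inside the untreated range of 3641 to 4002. BRAF had 2416, 2388 and 2406, overlapping the upper end of the untreated range of 2135 to 2394. The 95% intervals over the 7 genes ran from -0.15 to 0.19, so increases beyond 1.14-fold lay outside every interval. None of the 7 had an unadjusted p under 0.05, beside 22.1% of all genes.

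Set against BDNF IgA directly, TSPAN7 IgA left all 7 genes uncalled, where 3.42% of all genes were higher and 4.5% lower. MAPK3 had the smallest p, at 1714, 1668 and 1656 normalised counts with TSPAN7 IgA against 1859, 1719 and 1941 with BDNF IgA, which did not overlap (log2 fold change -0.13, SE 0.054, edgeR adjusted p = 0.147). Such a separation downwards was seen in 1 of the 7 genes, beside 2268 of all 18732 genes. When BDNF IgA replicate 2 was left out, this comparison called MAPK3 (-0.18, edgeR adjusted p = 0.0237) and HRAS (0.26, edgeR adjusted p = 0.0137), while the share of all genes called went from 7.92% to 17.1%. The other 5 genes had log2 fold changes between -0.060 and 0.057.

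The ratio of paralogs within a library does not depend on scaling. In each of the pairs one count was divided by the other, and the groups were compared by an exact permutation test, which with 3 against 3 libraries cannot give p below 0.10. The MAP2K1 to MAP2K2 count ratio was 0.842, 0.638 and 0.645 in IgA replicates 1, 2 and 3, 0.580, 0.575 and 0.607 with IgG, and 0.559, 0.527 and 0.562 untreated. All IgA ratios were higher than all others. The log2 ratio was -0.51 ± 0.23 with IgA, -0.77 ± 0.042 with IgG and -0.86 ± 0.050 untreated (SD). It was 0.26 higher with IgA than with IgG (SE 0.13) and 0.36 higher than untreated (SE 0.13), each at the smallest exact permutation p possible, 0.1, and at 0.45 after Benjamini-Hochberg adjustment over 18 tests. IgA replicate 1 set much of the size, and without it the differences were 0.13 and 0.22.

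IgG also had a higher MAP2K1 to MAP2K2 ratio than untreated cells, by 0.097 on the log2 scale (SE 0.038, exact permutation p = 0.1). In the second series the ratio was 0.472, 0.453 and 0.459 with BDNF IgA, 0.437, 0.472 and 0.476 with TSPAN7 IgA, and 0.457, 0.409 and 0.406 untreated. Both antibodies stood 0.12 above untreated cells with 1 untreated library inside their range (SE 0.058 and 0.068, exact permutation p = 0.2 in each). The NRAS to HRAS ratio was 7.21, 7.24 and 4.35 with IgA, beside 6.94 to 8.26 with IgG and 6.61 to 7.67 untreated. It did not separate the groups (log2 differences of -0.28 and -0.24, exact permutation p = 0.6 and 0.5). BRAF to ARAF ratios lay between 1.33 and 1.94 in the first series and between 1.25 and 1.43 in the second. Their log2 difference was at most 0.10, in BDNF IgA against untreated cells (SE 0.037, exact permutation p = 0.1). In all, 4 of 18 tests reached the smallest p, and none passed after adjustment.

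**Figure D3:**
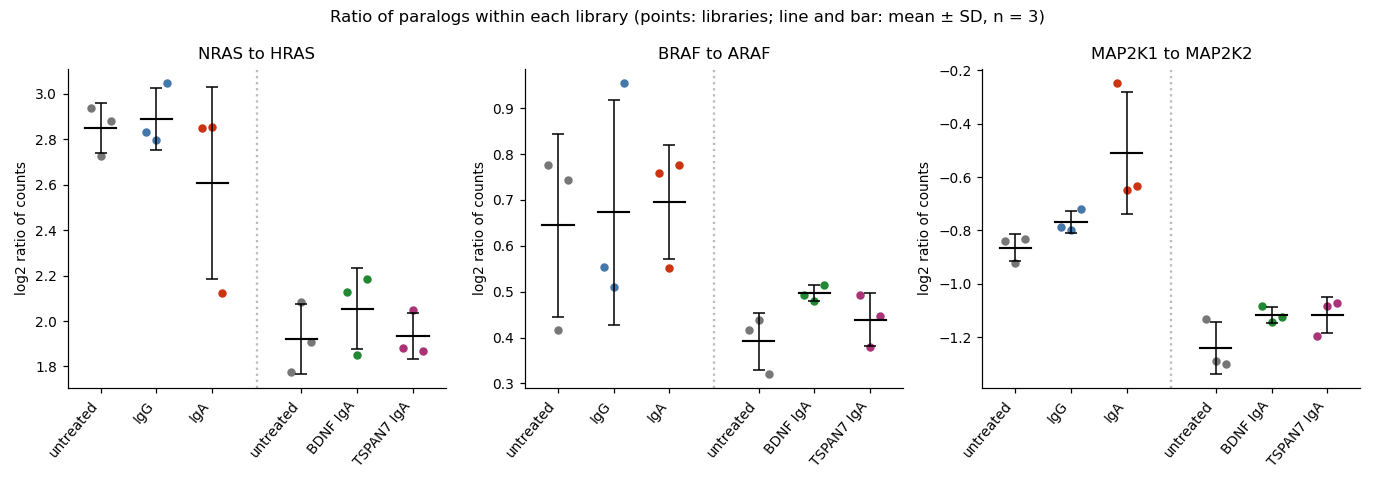
Log2 ratio of the counts of 2 paralogs in each library (points; lines and bars, mean ± SD of 3 replicates). MAP2K1 to MAP2K2 is higher in every IgA library (-0.65 to -0.25) than in the IgG and untreated libraries, and NRAS to HRAS is low in IgA replicate 3 (2.12).

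Levels can be compared between genes only per length of transcript. In untreated cells of the first series, in CPM per kilobase of merged exons, NRAS was the highest at 23.5 ± 1.69 (SD, n = 3). MAPK3 followed at 11.6 ± 0.813, MAP2K2 at 10.3 ± 0.545 and ARAF at 10.1 ± 0.619, and the ranges of these 3 neighbours overlapped in that order. MAP2K1 was at 6.82 ± 0.144, HRAS, whose range did not reach that of MAP2K1, at 5.81 ± 0.509 and BRAF lowest at 2.31 ± 0.240. The order depends on which exons are counted. Per kilobase of the longest transcript MAP2K2 reached 23.0, in the range of NRAS, and BRAF reached 5.52, since its merged exons span 23433 bases and its longest transcript 9807. In the second series the order by merged exons in untreated cells began with NRAS at 20.8 ± 0.989 and MAP2K2 at 15.0 ± 0.693, and ended again with BRAF at 2.32 ± 0.150.

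Genes on the other strand share exon bases with some of the 7. Strand use in counting is not given in the sources used here, so reads there cannot be assigned with certainty. SNAPC5, a subunit of a small nuclear RNA transcription complex, overlaps 216 bases or 3.34% of the merged exons of MAP2K1. An unnamed long non-coding RNA, for which no counts were found, overlaps 20.5%. SNAPC5 was not called with IgA against IgG (log2 fold change -0.23, edgeR adjusted p = 0.245) or untreated cells (-0.17, edgeR adjusted p = 0.386). The part of reads from either gene in the MAP2K1 counts was not tested. NDUFB2, a subunit of mitochondrial complex I, overlaps 5.29% of the merged exons of BRAF and was not called either (0.29 and 0.25, edgeR adjusted p = 0.121 and 0.188). The pseudogenes MAP2K1P1 and BRAFP1 had at most 6 counts in any library.

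Across the 9 libraries of the first series the log2 levels of the 7 genes tended to move together, with a median Pearson r of 0.67 over 21 pairs and the highest for HRAS with MAP2K2 (0.95). NRAS was the exception, with r from -0.43 to 0.23 against the other 6. In the second series the median was 0.013. These are descriptions over libraries that share treatments and scaling. By the smaller of the r of both series, the genes most like MAP2K1 among 13347 were MRPL55 (0.94 in each series) and ARF4 (0.90 in each), and those most like MAPK3 were WBP2 (0.94 and 0.93) and ATXN1 (0.92 and 0.93). HRAS was most like ZNF677 (0.90 and 0.95) and EIF2B3 (0.92 and 0.89), and MAP2K2 like PES1 (0.89 and 0.93) and CCDC124 (0.88 and 0.89). BRAF was most like SPIDR (0.93 and 0.85) and ZNF7 (0.83 and 0.86), and ARAF like ARFGAP3 (0.81 and 0.79) and TTBK2 (0.86 and 0.79). For NRAS the nearest were ACN9 (0.83 and 0.75) and ZFP30 (0.72 and 0.75).

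Around the core genes, 53 genes in 6 lists followed the steps of the pathway, and all 53 were tested in both series. With non-specific IgA 16 rose and 6 fell against IgG, 41.5% called beside 24.2% of all genes. Against untreated cells 18 rose and 2 fell, 37.7% beside 25%. In the fit of genes with at least 100 counts in every library, 33.3% and 33.8% of all genes were called. The lists were chosen with results of these data known. For each list below, the shares over all genes to set beside its counts are 12.6% higher and 11.6% lower against IgG, and 12.9% and 12.1% against untreated cells. Under library size scaling these shares are 4.85% and 20.2%, and 5.56% and 18.3%, so that higher calls became fewer and lower calls more frequent over all genes. RAS-related GTPases moved most with non-specific IgA. Of the 7 in the list, which act beside RAS in adhesion, vesicle traffic and growth signalling, 6 rose and 0 fell against IgG, with a list median of 0.56, and 6 rose and 0 fell against untreated cells, with a median of 0.47. RRAS went from 768 ± 97.0 normalised counts with IgG and 764 ± 76.0 untreated to 1626 ± 345 with IgA (log2 fold changes 1.08 and 1.09, edgeR adjusted p = 4.83e-04 and 4.06e-04). RRAS2 rose by 0.79 and 0.85 and RALB by 0.70 and 0.69 on the log2 scale. These 3 calls held under all alternatives. RAP1A, RAP1B and RALA were the other 3, named after their values were seen, and their calls against IgG held whichever library was left out. Against untreated cells RAP1A lost its call without untreated replicate 2 or 3 or IgA replicate 1, RAP1B without untreated replicate 1 or 3 or IgA replicate 1, and RALA without any 1 of the untreated libraries or IgA replicate 1, at edgeR adjusted p from 0.0514 to 0.0719. MRAS, also named after its values were seen, had -0.26 and -0.17 and was not called. With library size scaling 3 of the 7 were called higher and 0 lower in each comparison.

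Adaptors and regulators that load RAS with GTP or empty it gave 2 of 8 higher and 1 lower against IgG (median 0.11), and 3 higher and 0 lower against untreated cells (median 0.064). RASA1, a GTPase activating protein that turns RAS off, rose by 0.55 and 0.45 (edgeR adjusted p = 0.00813 and 0.0202), and SHC1, an adaptor that couples receptors to RAS, by 0.50 and 0.43 (edgeR adjusted p = 0.00300 and 0.00687). Against untreated cells RASA1 missed the threshold when untreated replicate 1 (0.40, edgeR adjusted p = 0.0932) or 3 (0.44, edgeR adjusted p = 0.0750) was left out. GAB1, a docking adaptor, fell by 0.37 against IgG, a call lost without untreated replicate 1, IgA replicate 1 or 3 or IgG replicate 2 or 3 (edgeR adjusted p = 0.0577 to 0.162). PTPN11, a phosphatase that promotes RAS activation, rose by 0.25 against untreated cells, a call that remained only without IgA replicate 1 or 3, the other 7 fits giving edgeR adjusted p from 0.0617 to 0.130. With library size scaling 0 rose and 2 fell against IgG, and 0 rose and 1 fell against untreated cells. Genes that process and traffic RAS to membranes gave 0 of 8 in either direction in both comparisons, with medians of 0.092 and 0.098.

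Among scaffolds and regulators of the cascade, 3 of 8 rose and 1 fell in both comparisons, with medians of 0.11 and 0.024. IQGAP1, a scaffold that binds RAF, MEK and ERK, rose by 0.67 in both (edgeR adjusted p = 0.00374 and 0.00377). PEBP1, which keeps RAF from MEK, rose by 0.54 and 0.52, and PEA15, which holds ERK in the cytoplasm, by 0.54 and 0.53. CNKSR1, a scaffold of RAS signalling, fell by 0.63 and 0.58 (edgeR adjusted p = 0.0242 and 0.0346). Leaving out IgG replicate 3 ended the calls of PEBP1 and CNKSR1 against IgG (0.45 and -0.53, edgeR adjusted p = 0.0533 and 0.103). Against untreated cells PEBP1 lost its call without untreated replicate 3 (0.44, edgeR adjusted p = 0.0629). CNKSR1 lost it there without any 1 of the untreated libraries, IgA replicate 2 or 3 or IgG replicate 2 (edgeR adjusted p = 0.0511 to 0.0967). With library size scaling 1 of the 8 rose and 1 fell against IgG, and 1 rose and 2 fell against untreated cells.

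Kinases and transcription factors that ERK phosphorylates gave 2 of 9 higher and 1 lower against IgG (median 0.11), and 3 higher and 0 lower against untreated cells (median 0.14). RPS6KA3 (RSK2) rose by 0.48 and 0.55 (edgeR adjusted p = 0.00546 and 0.00229) and ELK1 by 0.36 and 0.42 (edgeR adjusted p = 0.0294 and 0.0132). RPS6KA2 fell by 0.50 against IgG, and RPS6KA1 rose by 0.40 against untreated cells. Single libraries decided several of these calls. ELK1 kept its call against IgG only without untreated replicate 3 or IgA replicate 2 or 3 (edgeR adjusted p up to 0.109 in the other fits), and lost it against untreated cells without untreated replicate 1 or 2 (edgeR adjusted p = 0.0684 and 0.0507). RPS6KA2 lost its call without untreated replicate 1, IgA replicate 1 or 3 or IgG replicate 2 or 3 (edgeR adjusted p = 0.0596 to 0.143), and RPS6KA1 kept it only without IgG replicate 1 or 3 (up to 0.145 in the other fits). Under library size scaling 0 of the 9 rose and 2 fell against IgG, and 1 rose and 2 fell against untreated cells.

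Parallel MAP kinase cascades moved both ways, with 3 of 13 higher and 3 lower against IgG (median 0.025) and 3 higher and 1 lower against untreated cells (median -0.11). MAPK6 (ERK3) rose by 0.61 and 0.66 and MAP2K3, which activates p38 kinases, by 0.61 in both. MAPK7 (ERK5) fell by 0.56 and 0.64. Against IgG its call remained only without IgA replicate 2 or 3 (edgeR adjusted p up to 0.102 in the other fits), and against untreated cells it was lost without untreated replicate 1 or 3 (edgeR adjusted p = 0.0763 and 0.0609). With library size scaling 0 rose and 3 fell against IgG, and 1 rose and 3 fell against untreated cells.

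**Figure D4:**
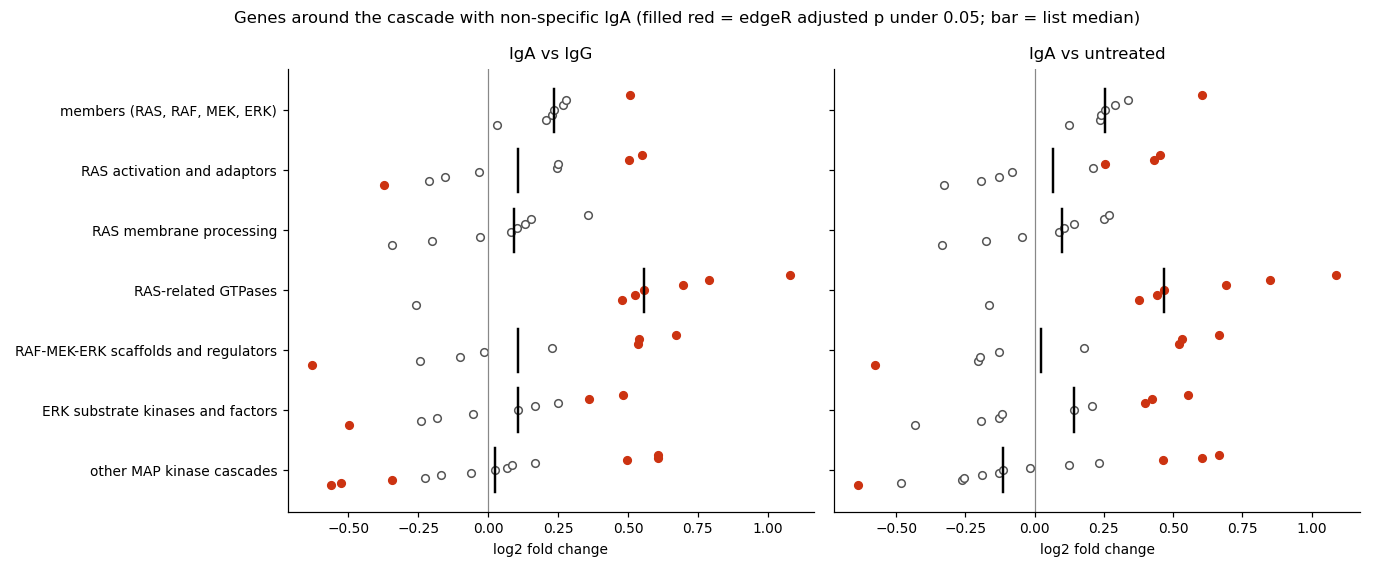
Log2 fold changes with non-specific IgA of the 7 core genes and of 6 lists of pathway genes (one point per gene, black bars the list medians, filled red points an edgeR adjusted p under 0.05). RAS-related GTPases stand furthest to the right (medians 0.56 and 0.47), and the membrane processing list holds no called gene.

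None of the 53 genes passed the test with IgG against untreated cells. In the second series 3 of the 53 (5.66%) were called with BDNF IgA, beside 7.67% of all genes. With TSPAN7 IgA 5 were called (9.43%, beside 8.54%), and between these antibodies 2 (3.77%, beside 7.92%). With BDNF IgA, RRAS rose by 0.24 and MRAS by 0.35 (edgeR adjusted p = 0.0375 and 0.00929), while ELK1 fell by 0.21 (edgeR adjusted p = 0.0193). All 3 calls depended on single libraries. The RRAS call was lost without BDNF IgA replicate 1 or 3, TSPAN7 IgA replicate 2 or untreated replicate 1 or 3 (edgeR adjusted p = 0.0531 to 0.196), and the ELK1 call without BDNF IgA replicate 1 or 3 or untreated replicate 1 or 2 (edgeR adjusted p = 0.0608 to 0.125). The MRAS call was lost without BDNF IgA replicate 3 (0.24, edgeR adjusted p = 0.0895).

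With TSPAN7 IgA, LAMTOR2, part of a lysosomal scaffold for MEK and ERK, fell by 0.32 (edgeR adjusted p = 0.00159) and MAP2K7, an activator of JNK, fell by 0.28 (edgeR adjusted p = 0.00268). Both calls held under all alternatives. PDE6D, which carries farnesylated RAS, rose by 0.28, RPS6KA1 by 0.20 and MAPK9, a JNK kinase, by 0.19. The PDE6D call remained only without BDNF IgA replicate 2 or 3 or untreated replicate 2, and the RPS6KA1 call only without BDNF IgA replicate 2 or 3 or untreated replicate 1, with edgeR adjusted p up to 0.250 and 0.189 in the other fits. MAPK9 lost its call without TSPAN7 IgA replicate 2 or 3 or any 1 of the untreated libraries (edgeR adjusted p = 0.0728 to 0.169). Against BDNF IgA, TSPAN7 IgA gave lower LAMTOR2 (-0.24, edgeR adjusted p = 0.0199) and higher RPS6KA1 (0.20, edgeR adjusted p = 0.0467). LAMTOR2 lost that call without BDNF IgA replicate 1 or 3 or TSPAN7 IgA replicate 2 (edgeR adjusted p = 0.113 to 0.151), and RPS6KA1 kept it only without BDNF IgA replicate 2 or untreated replicate 3 (up to 0.186 in the other fits). The medians of the 6 lists lay between -0.079 and 0.085 in the 3 comparisons of the second series.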

How the data were processed

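Per the methods and labels, the authors removed adapters with cutadapt 1.8.1, mapped the read pairs to GRCh37 with STAR and counted reads that mapped once per gene with featureCounts. The submitters' processing notes name HTSeq 0.6.1 instead, and strand use is not given in the sources used here. The deposited values are raw counts per gene. Exact repeats among the rows of the second table (2055 of 57820) were dropped, leaving 55765 symbols in each series. Totals were 27920733 to 47381836 counts per library. Errors are those between replicates, because PCR copies cannot be told from separate molecules in these counts. Close paralogs such as the RAS genes may lose shared reads.

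Each series was fitted once over its 9 libraries with edgeR 4.0.16 in R 4.3.3 (TMM, filterByExpr, quasi-likelihood F test, two-sided, Benjamini-Hochberg over all genes tested, called at an adjusted p under 0.05). SE is the absolute log2 fold change over the square root of F. Paralog ratios were tested by exact permutation in scipy 1.17.1 (two-sided, adjusted over 18 tests). Correlations used log2 CPM with a prior count of 2, over genes averaging at least 50 normalised counts. Gene positions and lengths are from GENCODE on GRCh37, and promoter windows from RefSeq, with all 7 genes matched. Alternatives were DESeq2 1.42.0, other scalings and filters, fits of only the 6 libraries compared or without mitochondrial and ribosomal RNA genes, a replicate block and each replicate left out. The fits were tested on simulated data, with changes placed only in genes averaging at least 50 counts. Those changes were larger than any of the 7 genes' own, so detection of changes as small as these was not tested. Lists were described by counts and medians, naming at most the 3 called genes of largest change per list and comparison. The genes and lists were chosen with earlier results of these data known. Not every cell type marker of the list is reported here.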

Additional observations from a re-analysis of the deposited data

How the results depend on the processing

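Of 714 values of the 7 genes' fold changes under alternatives, 662 kept their direction and their side of the threshold, 42 changed sign, 8 gained a call and 2 lost one. The cause was not tested. Library size scaling moved the median of all genes by -0.23 against IgG and -0.21 against untreated cells. All 7 genes stayed above that median in both, which a shift of nearly the same amount in all genes could hardly change. Library size scaling called 0 of the 7 in both IgA comparisons. It gave log2 fold changes against IgG of -0.18 for NRAS, -0.033 for ARAF, -0.016 for BRAF and -0.0011 for MAP2K2, of -0.063 for NRAS with IgA against untreated cells and of 0.012 for MAPK3 with IgG. Requiring 100 counts in every library gave -0.023 for NRAS with IgA against IgG and -0.0021 for MAPK3 with TSPAN7 IgA. MAP2K2 with IgG was -0.0018 with RLE scaling and -0.0016 with DESeq2.

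The replicate block called 2 of the 7 genes with IgA against untreated cells, adding BRAF (0.29, edgeR adjusted p = 0.0419), and changed no other call among the 7 genes. Whether replicate numbers pair libraries across groups is not given in the sources used here. Correlations of same-numbered deviations ran from -0.069 to 0.25, and of 6 libraries per pair of groups between 0 and 6 correlated best with their own number. 

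Leaving out single replicates gave 1 to 2 calls in both IgA comparisons, 0 to 3 with BDNF IgA and 0 to 2 between the antigen-specific antibodies. With IgA, NRAS ran from -0.12 to 0.20 against IgG and from -0.028 to 0.29 against untreated cells. With IgG, HRAS ran from -0.011 to 0.15, ARAF from -0.016 to 0.082, BRAF from -0.035 to 0.13, MAP2K2 from -0.052 to 0.072 and MAPK3 from -0.070 to 0.023. With BDNF IgA, NRAS ran from -0.021 to 0.047, ARAF from -0.010 to 0.049 and MAP2K1 from -0.019 to 0.051. With TSPAN7 IgA, HRAS ran from -0.016 to 0.077, ARAF from -0.011 to 0.036 and MAPK3 from -0.012 to 0.019, and against BDNF IgA, ARAF from -0.035 to 0.023. Log2 ratio differences of NRAS to HRAS ran from -0.36 to 0.0043 with IgA against untreated cells, from -0.036 to 0.090 with IgG and from -0.062 to 0.091 with TSPAN7 IgA. Those of BRAF to ARAF ran from -0.059 to 0.16 with IgA against IgG, from -0.064 to 0.12 against untreated cells and from -0.11 to 0.11 with IgG, and those of MAP2K1 to MAP2K2 from -0.023 to 0.039 between the antigen-specific antibodies.

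Counts of list genes under the alternatives were computed after seeing the data. Of 22 list genes called with IgA against IgG, 4 kept the call under every alternative, 10 lost it only with library size scaling and 8 lost it without some replicate. Against untreated cells these were 6, 4 and 10 of 20.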
